A study of Capra hircus with 9 samples.

Results

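Transcript levels of 9 genes of ductal sodium, bicarbonate and potassium transport were followed in the goat submandibular gland at 3 ages. The genes are SCNN1A, SCNN1B, SCNN1G, FXYD2, CFTR, SLC4A4, SLC26A4, SLC26A6 and KCNJ1. They were taken by name for their known roles, with earlier results of these data known. All 9 were found among the 21231 genes of the expression table. Submandibular glands of healthy female Lubo goats were sampled at 1 month (group A), 12 months (group B) and 24 months (group C), with 3 goats and therefore 3 libraries per age. Rearing conditions were the same for all goats, with natural light, and the goats were fasted and given xylazine hydrochloride as a general anaesthetic before slaughter, so age is the one condition that differed by design. The libraries were made from whole gland, and in every result given here fewer cells of a type cannot be told apart from less RNA per cell.

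Salivary glands form saliva in steps. Acinar cells release a fluid rich in sodium and chloride, and the duct cells then take up sodium and chloride and add potassium and bicarbonate. The epithelial sodium channel admits sodium from the duct lumen, the sodium pump moves it out towards the blood, and CFTR works with SLC26 exchangers on chloride and bicarbonate. The mineralocorticoid receptor NR3C2 carries the aldosterone signal that raises sodium uptake. Ruminant saliva is known for its bicarbonate, which buffers the rumen.

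Libraries of group A held 11546808 to 17586065 expected counts, those of group B held 18231894 to 21065278 and those of group C held 22040776 to 24901065. Levels are given as CPM, counts per 1000000 counts of the library, scaled for library composition by the TMM method but not for transcript length, so the level of one gene is not compared with that of another. A count of 3 equals 0.149 to 0.196 CPM in these libraries, and differences below that were not detectable. Fold changes are log2 values fitted with edgeR's quasi-likelihood test, with p-values adjusted by the Benjamini-Hochberg method over all genes tested, and a gene is said to have risen or fallen only at an adjusted p under 0.05.

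One library stood apart from all others. The summed level of 11 thymus genes was 10331 CPM in 1-month replicate 2, against 2965 and 1428 CPM in the other 1-month libraries and 4.99 to 18.9 CPM in the 6 older ones, and none of the 11 was at 0 in any 1-month library. RAG1, which developing lymphocytes use to rearrange their receptor genes, alone reached 4360 CPM there. Many defining markers of the labelled gland were nearly absent from the same library. AQP5, the water channel of acinar cells, was at 0.508 CPM, and the mucin MUC19 was at 52.4 CPM against 17511 and 23876 CPM in the other 1-month libraries. The sum of 8 acinar genes was 109.7 CPM against 18544 and 25470.3 CPM, and the sum of 8 duct genes was 176 CPM against 834 and 1381 CPM. The duct genes were not alike. KRT19 and SLPI were at 126 and 22.7 CPM there, which is 139% and 319% of the mean of the other 1-month libraries. The rest were at 0.551% to 16.6% of that mean, KLK1 at 9.17 CPM against 338 and 750 CPM. The sum of 7 general epithelial genes was 647 CPM against 590 and 841 CPM, but these genes were not alike. KRT8, CDH1 and KRT18 were at 316, 224 and 70.8 CPM in that library, which is 156%, 114% and 95.9% of the mean of the other 1-month libraries. EPCAM, GRHL2 and ESRP1 were at 7.14, 3.88 and 9.10 CPM, which is 6.16%, 11.7% and 13.1% of that mean, and ESRP2 was at 16.2 CPM or 66.4%. The duct gene sum also moved with age, from 3558 to 5792 CPM in group B and from 3739 to 9958 CPM in group C. KLK1 was its largest part, at 1842 to 4227 CPM in group B and 2191 to 7827 CPM in group C. Of the 8 duct genes none rose and SLPI fell by 12 months, where 6.52% of all genes rose and 11.7% fell. By 24 months 2 rose and SLPI fell, where 7.1% rose and 10.4% fell. Without 1-month replicate 2, 6 rose by 12 months and 7 by 24 months, where 21.4% and 14.1% of all genes rose. SLPI fell in both, where 22.2% and 14.2% fell. The part of these cell type genes in the results was not tested, and the fold changes and list counts are given with and without 1-month replicate 2.

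Of the 9 transport genes, 7 passed the filter on low counts. In the comparison of group A with group B, SLC4A4 was the 1 gene of these 7 that rose and none fell, where 6.52% of all 14625 tested genes rose, 11.7% fell and 18.2% changed in either direction. In the comparison of group A with group C, SLC4A4 and SCNN1G rose, 2 of 7, where 7.1% of 14699 tested genes rose, 10.4% fell and 17.5% changed. With a log2 fold change over 2 required as well, and no minimum FPKM, the same 1 and 2 genes were kept, where 2.12% and 4.23% of all genes rose past it. Both comparisons use the same 1-month libraries and are not independent of each other. In 5 of the 7 genes every 12-month library was above every 1-month library, a pattern that 26.7% of tested genes showed, and in 6 of the 7 every 24-month library was above every 1-month library, a pattern of 20.3% of tested genes. Without 1-month replicate 2, 5 of the 7 genes rose by 12 months (21.4% of 14949 genes rose and 22.2% fell) and 6 of the 7 rose by 24 months (14.1% of 15080 genes rose and 14.2% fell). The median log2 fold change of the 7 genes was 2.05 from group A to group B and 2.75 from group A to group C, beside medians over all tested genes of -0.02 and -0.01. Without 1-month replicate 2 it was 1.38 and 2.18, beside -0.01 and 0.05.

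**Figure D1:**
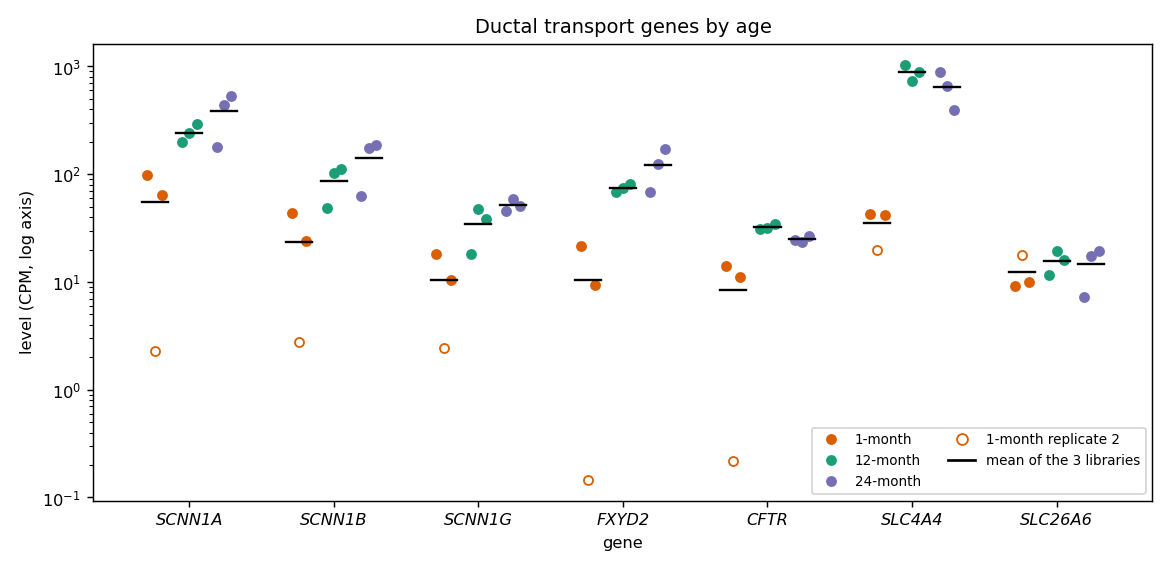
Level of the 7 transport genes that passed the filter, in CPM on a log axis, with 1 point per library (3 per age) and a bar at the mean of the 3 libraries. The open circle is 1-month replicate 2, which lay lowest for every gene shown except SLC26A6, and the 12-month and 24-month points of SLC4A4 lay between 392 and 1038 CPM against 19.7 to 42.9 CPM at 1 month.

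SLC4A4 encodes an electrogenic sodium bicarbonate cotransporter, which in many epithelia brings bicarbonate into the cell from the blood side. Its level was 42.9, 19.7 and 42.1 CPM in the 1-month libraries, 1038, 728 and 882 CPM in the 12-month libraries, and 887, 662 and 392 CPM in the 24-month libraries. The 1-month libraries lay far below all older ones, 1-month replicate 2 was again lowest, and the 12-month and 24-month ranges overlapped. The mean rose from 34.9 ± 13.2 CPM (SD, n = 3) in group A to 883 ± 155 CPM in group B and was 647 ± 248 CPM in group C, which is 25.3-fold and 18.5-fold above group A. The log2 fold change from group A to group B was 4.73 with a standard error of 0.437 (edgeR adjusted p = 0.0059). From group A to group C it was 4.33 with a standard error of 0.557 (edgeR adjusted p = 0.0040). Among all tested genes this was the 31st largest of 14625 log2 fold changes by 12 months and the 56th largest of 14699 by 24 months.

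The rise of SLC4A4 did not need 1-month replicate 2. Without it the log2 fold change was 4.38 to group B (edgeR adjusted p = 0.00021) and 4.04 to group C (edgeR adjusted p = 0.00063). Without 12-month replicate 1 the fitted value to group B was 4.62 with an edgeR adjusted p of 0.0510, in a fit where no gene of 15047 passed. The gene was carried almost wholly by 1 transcript, XM_018049558.1, which held 93.3% to 100% of its counts in every library. Tested by itself, that transcript rose by 4.74 on the log2 scale to group B (edgeR adjusted p = 0.0280) and by 4.33 to group C (edgeR adjusted p = 0.0372).

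The epithelial sodium channel is built from an alpha, a beta and a gamma subunit, encoded by SCNN1A, SCNN1B and SCNN1G. SCNN1A was at 99.1, 2.28 and 63.8 CPM in the 1-month libraries, at 199.6, 239.5 and 292.6 CPM in the 12-month libraries and at 177, 441 and 529 CPM in the 24-month libraries. Every older library lay above every 1-month library, 1-month replicate 2 lay far below the others of its age, and 24-month replicate 1 lay below all 12-month libraries. The log2 fold change was 2.24 ± 1.05 (SE) to group B (edgeR adjusted p = 0.164) and 2.95 ± 1.08 to group C (edgeR adjusted p = 0.0936), so neither passed the test. Without 1-month replicate 2 the gene rose, by 1.59 ± 0.258 to group B (edgeR adjusted p = 0.0051) and by 2.34 ± 0.515 to group C (edgeR adjusted p = 0.0107).

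SCNN1B was at 43.6, 2.79 and 24.1 CPM in the 1-month libraries, at 48.4, 102 and 112 CPM in the 12-month libraries and at 63.2, 177 and 188 CPM in the 24-month libraries. The ages did not overlap between group A and the older groups, although 12-month replicate 1 was only just above 1-month replicate 1. The log2 fold change was 1.98 ± 0.860 to group B (edgeR adjusted p = 0.139) and 2.75 ± 0.883 to group C (edgeR adjusted p = 0.0641). Without 1-month replicate 2 the gene rose by 1.37 ± 0.430 to group B (edgeR adjusted p = 0.0435) and by 2.18 ± 0.534 to group C (edgeR adjusted p = 0.0163).

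SCNN1G was at 18.3, 2.47 and 10.5 CPM in the 1-month libraries, at 18.1, 47.6 and 38.3 CPM in the 12-month libraries and at 45.8, 59.3 and 50.7 CPM in the 24-month libraries. Groups A and B overlapped through 12-month replicate 1, which lay just under 1-month replicate 1, whereas groups A and C did not overlap. The log2 fold change to group B was 1.82 ± 0.708 (edgeR adjusted p = 0.111), and the gene rose to group C by 2.46 ± 0.649 (edgeR adjusted p = 0.0350). Without 1-month replicate 2 the log2 fold change was 1.27 ± 0.455 to group B (edgeR adjusted p = 0.0646) and 1.96 ± 0.383 to group C (edgeR adjusted p = 0.0069). The call for group C was lost when any 24-month library or 1-month replicate 3 was left out, and without 24-month replicate 1 the value was 2.58 (edgeR adjusted p = 0.0709).

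The proportions of the 3 subunits were set against each other within each library, which does not depend on scaling between libraries, although counts are not corrected for transcript length. The ratio of SCNN1B to SCNN1A counts was 0.440, 1.22 and 0.377 at 1 month, 0.243, 0.427 and 0.382 at 12 months, and 0.357, 0.401 and 0.355 at 24 months. The ratio of SCNN1G to SCNN1A counts was 0.184, 1.08 and 0.164 at 1 month, 0.0909, 0.199 and 0.131 at 12 months, and 0.258, 0.135 and 0.0958 at 24 months. Only 1-month replicate 2 was above 1 in either ratio, and all ages overlapped. In 6 two-sided exact permutation tests of the log2 ratios between ages, p was 0.2 to 0.9, and with 3 libraries against 3 the smallest p possible is 0.1. From group A to group B the mean log2 ratio differed by -0.79 for SCNN1B and by -1.26 for SCNN1G, and without 1-month replicate 2 by -0.26 and -0.38.

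FXYD2 encodes the gamma subunit that tunes the sodium pump, best known from the kidney. It was at 21.5, 0.145 and 9.37 CPM in the 1-month libraries, at 68.4, 73.8 and 81.8 CPM in the 12-month libraries and at 68.4, 126 and 171 CPM in the 24-month libraries. All older libraries were above all 1-month libraries, and the level in 1-month replicate 2 was below 3 counts. The means were 10.3 ± 10.7 CPM in group A, 74.7 ± 6.78 CPM in group B and 122 ± 51.5 CPM in group C (SD, n = 3). The log2 fold change was 2.94 ± 1.19 (SE) to group B (edgeR adjusted p = 0.121) and 3.71 ± 1.20 to group C (edgeR adjusted p = 0.0654). Without 1-month replicate 2 it rose by 2.28 ± 0.356 to group B (edgeR adjusted p = 0.0045) and by 3.08 ± 0.538 to group C (edgeR adjusted p = 0.0043). The transcript XM_018059731.1 held 97.9% to 100% of its counts.

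CFTR encodes the cyclic AMP-regulated chloride and bicarbonate channel that is mutated in cystic fibrosis. It was at 14.0, 0.217 and 11.0 CPM in the 1-month libraries, at 31.0, 32.0 and 34.8 CPM in the 12-month libraries and at 24.4, 23.5 and 26.9 CPM in the 24-month libraries. The adult libraries of each age were tightly grouped, and the 3 ages did not overlap at all, with group B highest and group A lowest. The log2 fold change was 2.05 ± 1.05 to group B (edgeR adjusted p = 0.195) and 1.71 ± 0.997 to group C (edgeR adjusted p = 0.260). Without 1-month replicate 2, CFTR rose by 1.38 ± 0.168 to group B (edgeR adjusted p = 0.0021) and by 1.10 ± 0.338 to group C (edgeR adjusted p = 0.0381).

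SLC26A6 encodes an anion exchanger that swaps chloride for bicarbonate. It was at 9.14, 17.9 and 10.0 CPM in the 1-month libraries, at 11.5, 19.4 and 16.1 CPM in the 12-month libraries and at 7.26, 17.4 and 19.3 CPM in the 24-month libraries. The 3 ages overlapped, and here 1-month replicate 2 was the highest library of its age. The log2 fold change was 0.39 ± 0.394 to group B (edgeR adjusted p = 0.493) and 0.36 ± 0.520 to group C (edgeR adjusted p = 0.661), and without 1-month replicate 2 it was 0.71 ± 0.262 (edgeR adjusted p = 0.0707) and 0.72 ± 0.469 (edgeR adjusted p = 0.274).

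SLC26A4 encodes pendrin, another chloride and bicarbonate exchanger, and KCNJ1 encodes ROMK, the potassium channel through which kidney collecting ducts secrete potassium. SLC26A4 was at 0 to 0.315 CPM over the 9 libraries, with at most 5.72 expected counts in any one. KCNJ1 was at 0 to 0.114 CPM, with at most 1.75 expected counts, and was at 0 in all 12-month libraries. Both were too low to test, and no age difference was detectable for either at this depth.

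**Figure D2:**
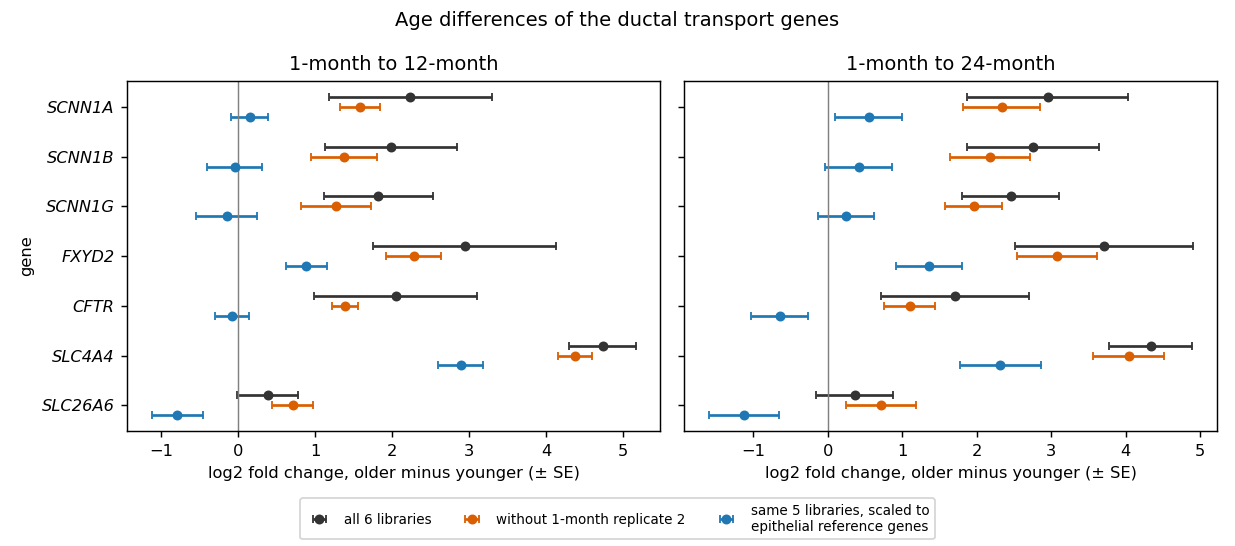
Log2 fold change with its standard error for the 7 tested genes, from 1 to 12 months (left) and from 1 to 24 months (right). Black points use all 6 libraries, orange points leave out 1-month replicate 2, and blue points use the same 5 libraries scaled to general epithelial genes. Black and orange points of SLC4A4 lay between 4.04 and 4.73, and its blue points were at 2.89 and 2.31 while those of CFTR were at -0.08 and -0.65.

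Between groups B and C none of the 7 genes passed edgeR's quasi-likelihood test, and neither did any of the 14080 genes tested (0% called). Before adjustment 1555 genes (11%) had a p under 0.05, among them 1 transport gene, FXYD2. With the exact test of edgeR 21 genes passed, with the Wald test of DESeq2 also 21, and no transport gene was among them. The log2 fold changes from group B to group C were 0.69 for SCNN1A, 0.75 for SCNN1B, 0.62 for SCNN1G and 0.75 for FXYD2, with edgeR adjusted p-values of 0.426 to 0.443. CFTR had a value of -0.35 (edgeR adjusted p = 0.451) and SLC4A4 of -0.40 (edgeR adjusted p = 0.513). CFTR was the 1 gene of the 7 whose libraries did not overlap between these ages, all 24-month libraries being lower, as in 7.49% of tested genes. Among the 24-month libraries, replicate 1 was lowest for SCNN1A, SCNN1B, SCNN1G and FXYD2 and highest for SLC4A4. Its duct gene sum of 3739 CPM, 2191 CPM of it KLK1, was also below the 7857 and 9958 CPM of the other 24-month libraries, 6067 and 7827 CPM of them KLK1. Without that library SCNN1A rose by 1.03 (edgeR adjusted p = 0.0120), SCNN1B by 1.10 (edgeR adjusted p = 0.0348) and FXYD2 by 1.03 (edgeR adjusted p = 0.0094) from group B to group C, in a fit where 32.4% of 14375 genes passed.

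The levels were next set against general epithelium, because the level of general epithelial genes differed between ages. The genes used are general ones, so this scale is not a measure of gland epithelium alone. FOXN1, one of the 11 thymus genes, was at 16.2, 82.5 and 5.73 CPM in the 1-month libraries and at 0 to 0.106 CPM in the older ones. The part of the epithelial gene sum that came from thymus tissue was not tested. The summed level of EPCAM, CDH1, ESRP1, ESRP2, GRHL2, KRT8 and KRT18 was 590 to 841 CPM in group A, 1932 to 1962 CPM in group B and 1878 to 2470 CPM in group C. Scaled to these 7 genes, the median log2 fold change of all tested genes moved from -0.02 to -1.60 for group B and from -0.01 to -1.81 for group C, and 65% and 61.9% of genes passed. Of all genes 0.458% and 0.612% rose and 64.5% and 61.3% fell on this scale. In 1-month replicate 2 the scale rests mostly on KRT8 and CDH1, since EPCAM, GRHL2 and ESRP1 were low there. SLC4A4 still rose, by 3.15 to group B (edgeR adjusted p = 0.0018) and by 2.58 to group C (edgeR adjusted p = 0.0046). SLC26A6 fell on this scale, by 1.20 to group B (edgeR adjusted p = 0.0421) and by 1.54 to group C (edgeR adjusted p = 0.0316), beside the all-gene medians of -1.60 and -1.81.

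On the same scale and without 1-month replicate 2, SLC4A4 and FXYD2 rose and the other transport genes did not pass. Of all genes 78.4% and 68.1% passed in these fits, but only 180 of 14625 rose to group B and 129 of 14699 to group C. The all-gene medians were -1.49 and -1.70. SLC4A4 rose by 2.89 to group B (edgeR adjusted p = 0.00013) and by 2.31 to group C (edgeR adjusted p = 0.0053). FXYD2 rose by 0.89 (edgeR adjusted p = 0.0156) and by 1.36 (edgeR adjusted p = 0.0223). The sodium channel subunits had log2 values of -0.15 to 0.15 for group B and 0.24 to 0.55 for group C, with edgeR adjusted p-values of 0.290 or more. CFTR had values of -0.08 (edgeR adjusted p = 0.756) and -0.65 (edgeR adjusted p = 0.159), so the direction of CFTR depended on the scale.

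Per 1000 CPM of these epithelial genes, SLC4A4 was at 51.1, 30.4 and 71.3 in the 1-month libraries, at 529, 373 and 457 in the 12-month libraries and at 472, 282 and 159 in the 24-month libraries. The 1-month libraries stayed below all older ones. CFTR was at 16.7, 0.336 and 18.7 at 1 month, at 15.8, 16.4 and 18.0 at 12 months and at 13.0, 10.0 and 10.9 at 24 months. For CFTR, the 1-month libraries other than replicate 2 lay at or near the 12-month range and above all 24-month libraries. SCNN1A was at 118, 3.53 and 108 at 1 month, at 102, 123 and 151 at 12 months and at 94.3, 188 and 214 at 24 months, and the ages overlapped. SLC26A6 was at 10.9, 27.6 and 17.0 at 1 month, at 5.86, 9.93 and 8.33 at 12 months and at 3.87, 7.43 and 7.80 at 24 months, with every older library below every 1-month library. On the epithelial scale 64.5% of all genes fell by 12 months and 61.3% by 24 months. The share of all genes without overlap was not counted on that scale. FXYD2 was at 25.6, 0.224 and 15.9 at 1 month, at 34.8 to 42.4 at 12 months and at 36.4 to 69.3 at 24 months, with every older library above.

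**Figure D3:**
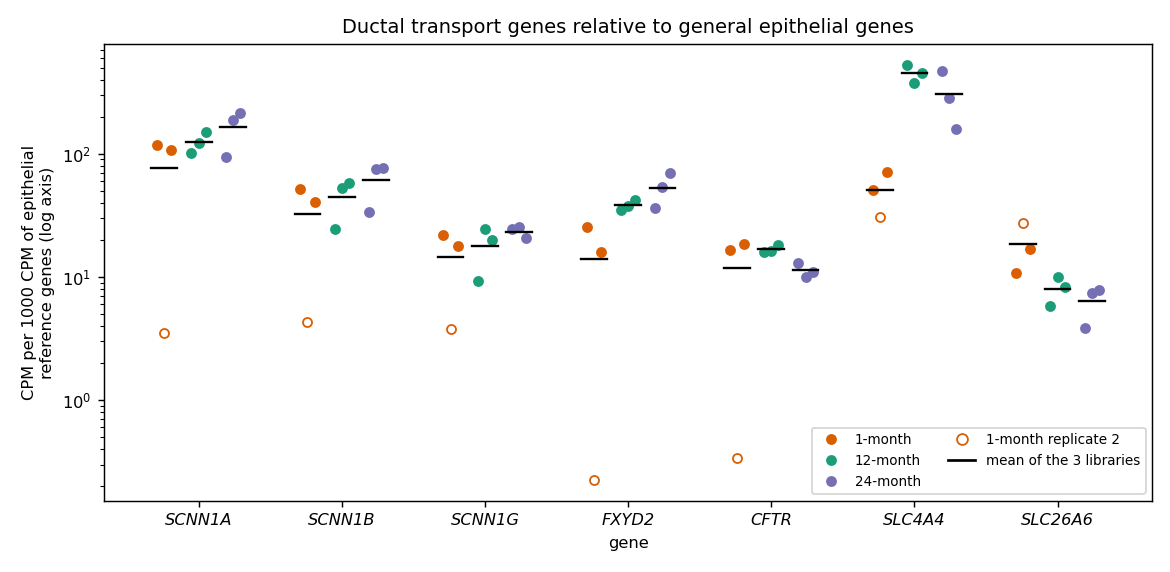
The same 7 genes as CPM per 1000 CPM of 7 general epithelial genes, on a log axis, with 1 point per library, a bar at the mean of 3 and an open circle for 1-month replicate 2. SLC4A4 stayed separate between 1 month (30.4 to 71.3) and the older ages (159 to 529), SLC26A6 lay lower at the older ages (3.87 to 9.93) than at 1 month (10.9 to 27.6), and the 3 channel subunits overlapped between 1 month and the older ages. With scaling to these genes, 64.5% of all genes fell by 12 months and 61.3% by 24 months.

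Genes that govern the sodium channel were read next. Of 17 regulators of the channel, all tested, 2 rose and none fell by 12 months, where 6.52% of all genes rose and 11.7% fell, and 6 rose and none fell by 24 months, where 7.1% rose and 10.4% fell. Their median log2 fold changes were 1.67 and 1.75. SPINT2, a protease inhibitor that blocks channel-activating proteases, was at 56.7 to 132 CPM in group A, 310 to 329 CPM in group B and 394 to 520 CPM in group C, and rose by 1.80 to group B (edgeR adjusted p = 0.0194) and by 2.35 to group C (edgeR adjusted p = 0.0139). ST14, the membrane protease matriptase, rose by 1.67 to group B (edgeR adjusted p = 0.0196) and by 2.35 to group C (edgeR adjusted p = 0.0167). WNK4, a kinase of salt transport, was at 1.32 to 1.68 CPM in group A, at 2.09, 15.4 and 7.53 CPM in group B and at 7.02 to 26.4 CPM in group C. It rose by 3.28 to group C (edgeR adjusted p = 0.0139). To group B it did not pass, with or without 1-month replicate 2. In the fit without 1-month replicate 2, SPINT2 rose by 1.46 and 2.06, ST14 by 1.35 and 2.06, and WNK4 by 3.31 to group C (edgeR adjusted p = 0.0015 to 0.0088).

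Genes of the aldosterone response were also read. The receptor NR3C2 was at 62.3, 0.544 and 41.3 CPM in the 1-month libraries, at 88.6 to 133 CPM in group B and at 102 to 127 CPM in group C. HSD11B2, the enzyme that keeps cortisol from that receptor, was at 54.9, 0.254 and 38.4 CPM at 1 month, at 72.8 to 117 CPM in group B and at 87.4 to 246 CPM in group C. Neither passed with all libraries (edgeR adjusted p = 0.171 to 0.326), and both rose without 1-month replicate 2, NR3C2 by 1.16 and 1.29 and HSD11B2 by 1.10 and 2.04 (edgeR adjusted p = 0.0141 to 0.0217). SGK1, the kinase that aldosterone induces, rose by 1.58 to group C (edgeR adjusted p = 0.0368) and had a log2 fold change of 0.94 to group B (edgeR adjusted p = 0.120), and without 1-month replicate 2 it also rose to group C (edgeR adjusted p = 0.0253) and had a value of 0.82 to group B (edgeR adjusted p = 0.140). NEDD4L, the ubiquitin ligase that removes the channel from the membrane, had values of -0.22 (edgeR adjusted p = 0.723) and 0.06 (edgeR adjusted p = 0.943), and its level was 82.6 to 230 CPM in group A, 104 to 144 CPM in group B and 138 to 149 CPM in group C. Without 1-month replicate 2, 8 of the 17 regulators rose by 12 months, where 21.4% of all genes rose, and 11 by 24 months, where 14.1% rose, and none fell. Scaled to general epithelium, none rose, 6 fell by 12 months and 5 by 24 months, where 64.5% and 61.3% of all genes fell, and the medians were 0.10 and 0.02 beside the all-gene medians of -1.60 and -1.81.

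Of 11 sodium pump genes, 7 were tested in the comparison with group B, where 2 rose and 1 fell beside 6.52% and 11.7% of all genes. In the comparison with group C 8 were tested, of which 1 rose and none fell beside 7.1% and 10.4% of all genes. With 1-month replicate 2 left out, 2 of 8 rose and 2 fell by 12 months (21.4% and 22.2% of all genes). By 24 months 2 of 8 then rose and none fell (14.1% and 14.2%). Scaled to general epithelium, none rose and 4 fell by 12 months, and 1 rose and 3 fell by 24 months. On that scale 0.458% and 0.612% of all genes rose and 64.5% and 61.3% fell. ATP1B1, the beta subunit that takes the pump to the membrane, rose by 2.30 to group B (edgeR adjusted p = 0.0446) and had a value of 2.07 to group C (edgeR adjusted p = 0.0565). FXYD3, a pump regulator like FXYD2, rose from 2.36 to 9.94 CPM in group A to 39.1 to 66.7 CPM in group B and 38.3 to 92.9 CPM in group C, by 3.04 (edgeR adjusted p = 0.0149) and 3.58 (edgeR adjusted p = 0.0102). FXYD5 fell by 2.26 to group B (edgeR adjusted p = 0.0275), and its value to group C was -1.48 (edgeR adjusted p = 0.137). Its highest library was 1-month replicate 2, at 47.3 CPM. Without that library ATP1B1 rose by 1.79 and 1.61 and FXYD3 by 2.56 and 3.14 (edgeR adjusted p = 0.0016 to 0.0129), and FXYD5 fell by 1.85 to group B (edgeR adjusted p = 0.0112).

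Among 25 other bicarbonate, anion and proton exchange genes, 16 were tested against group B and 17 against group C. By 12 months 2 rose and 1 fell beside 6.52% and 11.7% of all genes, and by 24 months 4 rose and none fell beside 7.1% and 10.4%, with median log2 fold changes of 0.72 and 0.84. When 1-month replicate 2 was left out, 7 of 17 rose and 2 fell by 12 months (21.4% and 22.2% of all genes), and 7 of 17 rose and none fell by 24 months (14.1% and 14.2%). The medians were then 0.71 and 1.03. Scaled to general epithelium, none rose, and 7 fell by 12 months and 3 by 24 months, where 64.5% and 61.3% of all genes fell. AHCYL1, known as IRBIT, which activates the SLC4A4 cotransporter and CFTR, was at 96.7 to 122 CPM in group A, 225 to 273 CPM in group B and 236 to 301 CPM in group C. It rose by 1.25 to group B (edgeR adjusted p = 0.0221) and by 1.44 to group C (edgeR adjusted p = 0.0329). SLC26A2, a sulfate transporter, rose by 3.20 to group B (edgeR adjusted p = 0.0266) and by 2.96 to group C (edgeR adjusted p = 0.0453). SLC4A10, a sodium bicarbonate transporter best known from neurons, fell by 4.49 to group B (edgeR adjusted p = 0.0162) at low levels, 0.716 to 1.34 CPM in group A and 0 to 0.0452 CPM in group B. In the fit without 1-month replicate 2, AHCYL1 rose by 1.19 and 1.43 and SLC26A2 by 2.63 and 2.45 (edgeR adjusted p = 0.000701 to 0.0219), and SLC4A10 fell by 4.54 to group B (edgeR adjusted p = 0.0099). Scaled to general epithelium, AHCYL1 had values of -0.31 and -0.34 (edgeR adjusted p = 0.367 and 0.526), which is the opposite sign.

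In the place of KCNJ1, 19 other potassium transport genes were read, of which 14 were tested in each comparison. In each 1 rose and none fell, beside the 6.52% and 7.1% of all genes that rose. KCNK1, a leak channel, was the 1 gene that rose by 12 months, by 1.52 (edgeR adjusted p = 0.0213), and LRRC26, an accessory subunit of the large calcium-activated potassium channel of secretory epithelia, was the 1 gene that rose by 24 months, by 3.86 (edgeR adjusted p = 0.0420). LRRC26 was at 4.17, 0.0360 and 2.38 CPM at 1 month, at 9.37 to 12.1 CPM in group B and at 12.3 to 37.2 CPM in group C. Without 1-month replicate 2, 8 of 15 rose and 1 fell by 12 months (21.4% and 22.2% of all genes), and 6 of 15 rose and 1 fell by 24 months (14.1% and 14.2%). KCNK1 then rose by 1.58 and 1.36 and LRRC26 by 1.76 and 3.23 (edgeR adjusted p = 0.0049 to 0.0277). Scaled to general epithelium, none of 14 rose, and 3 fell by 12 months and 4 by 24 months, where 64.5% and 61.3% of all genes fell. The gene that fell in both fits without 1-month replicate 2 was ATP12A, a proton and potassium pump.

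Of 4 chloride channel genes, 3 were tested, of which 1 rose by 12 months and 2 by 24 months, beside 6.52% and 7.1% of all genes. With 1-month replicate 2 left out all 3, ANO1, BSND and CLCN2, rose in both comparisons, beside 21.4% and 14.1% of all genes. Scaled to general epithelium none passed, where 65% and 61.9% of all genes did. CLCN2, a widely expressed chloride channel, rose by 2.07 (edgeR adjusted p = 0.0301) and 2.14 (edgeR adjusted p = 0.0469). ANO1, the calcium-activated chloride channel of acinar cells, rose by 2.60 to group C (edgeR adjusted p = 0.0418) and had a value of 2.32 to group B (edgeR adjusted p = 0.0667). In the same fit without 1-month replicate 2, CLCN2 rose by 1.68 and 1.80 and ANO1 by 1.73 and 2.06 (edgeR adjusted p = 0.0014 to 0.0476).

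Ionocytes and kidney intercalated cells are the specialised cells that carry CFTR or pendrin and a proton pump in other epithelia. Of 12 genes of these cells 11 were tested, and 1 rose in each comparison, PDE1C by 12 months and ATP6V0A4, a proton pump subunit, by 24 months, beside 6.52% and 7.1% of all genes. When 1-month replicate 2 was left out, 6 of 11 rose by 12 months (21.4% of all genes), and 4 rose and 1 fell by 24 months (14.1% and 14.2%). Scaled to general epithelium none rose and 2 fell in each comparison, where 64.5% and 61.3% of all genes fell. FOXI1, the transcription factor that defines these cells, was at 6.31, 0.217 and 4.93 CPM at 1 month, at 11.1 to 13.8 CPM in group B and at 6.24 to 23.7 CPM in group C (edgeR adjusted p = 0.190 and 0.133). ASCL3, a factor of progenitor and ionocyte cells in salivary ducts, was at 34.0, 3.24 and 22.5 CPM at 1 month, at 38.1 to 60.0 CPM in group B and at 48.6 to 70.7 CPM in group C (edgeR adjusted p = 0.198 and 0.119). In the fit without 1-month replicate 2, FOXI1 rose by 1.16 to group B (edgeR adjusted p = 0.0101) and had a value of 1.72 to group C (edgeR adjusted p = 0.0527), and ASCL3 rose by 0.81 and 1.22 (edgeR adjusted p = 0.0483 and 0.0310). PDE1C then rose by 1.42 to group B (edgeR adjusted p = 0.0167) and ATP6V0A4 by 1.59 and 2.30 (edgeR adjusted p = 0.0099 and 0.0043). In group B against group C, no gene of these 6 lists passed.

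**Figure D4:**
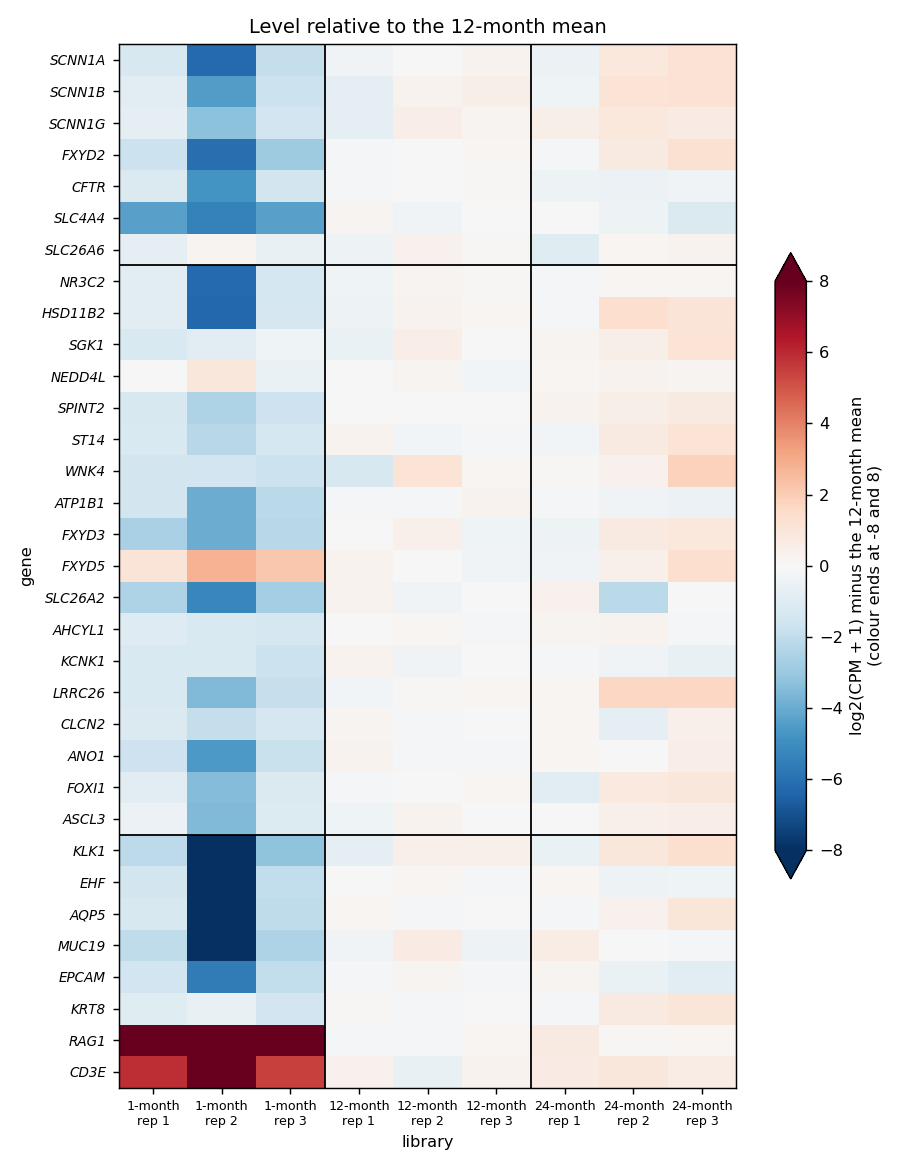
Each row is a gene and each column a library, coloured by log2(CPM + 1) minus the mean of the 12-month libraries, with the colour ending at -8 and 8. The 7 transport genes are at the top, pathway genes in the middle, and duct, acinar, general epithelial and thymus markers at the bottom. The column of 1-month replicate 2 is darkest blue for 6 of the 7 transport genes, for KLK1, EHF, AQP5 and MUC19, and red for RAG1 and CD3E. Of the general epithelial genes shown, EPCAM is also dark blue there and KRT8 is nearly white.

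The genes varied together over the 9 libraries, which share the same scaling and of which 1-month replicate 2 was lowest for 6 of the 7. Pearson correlations of log2(CPM + 1) among CFTR, FXYD2 and the 3 channel subunits were 0.888 to 0.985, those of SLC4A4 with these 5 genes were 0.772 to 0.864, and those of SLC26A6 with the other 6 genes were -0.095 to 0.165. These values describe 9 libraries of 3 ages and carry no test. Among 13946 genes, the pattern most like SCNN1A was that of PRSS8 (r = 0.997), which encodes prostasin, and that most like SCNN1B was that of KLK1 (r = 0.989), a kallikrein of salivary ducts, at 9.17 to 750 CPM in group A, 1842 to 4227 CPM in group B and 2191 to 7827 CPM in group C. For CFTR the closest genes were PHLDA1 and C16H1orf115 (r = 0.996 for each), for FXYD2 SPINT1 and SH3BP4 (r = 0.997 for each), for SCNN1G SYNE4 and C15H11orf52 (r = 0.989 for each), and for SLC4A4 TMEM248 (r = 0.994) and CIPC (r = 0.993). The second gene was IGSF9B for SCNN1A (r = 0.996) and CKMT1A for SCNN1B (r = 0.988). SLC26A6 was least like any other gene, with IMPA2 (r = 0.943) and POLR2I (r = 0.908) closest.

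The transport genes were assembled from 22 transcripts, and their split differed between genes. SCNN1A counts were divided mainly between XM_018048599.1, with 32.7% to 46.8%, and XM_018048600.1, with 44.3% to 58.1% in all libraries except 1-month replicate 2, where it was at 0. SCNN1B was led by XM_018040980.1 with 55.8% to 90.7%, the lowest share again in 1-month replicate 2, and SCNN1G has 1 transcript in the table. CFTR was split between a RefSeq transcript and the newly assembled TCONS_00012348 and TCONS_00012349 in proportions that changed from library to library. The RefSeq transcript XM_013963305.2 held 70.7% of CFTR counts in 24-month replicate 1 and 0 in 24-month replicate 2, while the gene totals of both libraries differed little, at 24.4 and 23.5 CPM. In SLC26A6 the newly assembled TCONS_00065000 held 81.7% of counts in 24-month replicate 2 and 0 in 24-month replicate 1. Reads are divided between overlapping transcripts by estimation, and the single transcripts of CFTR and SLC26A6 are therefore uncertain. None of the transcripts of these genes other than that of SLC4A4 passed edgeR's test between any ages.

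**Figure D5:**
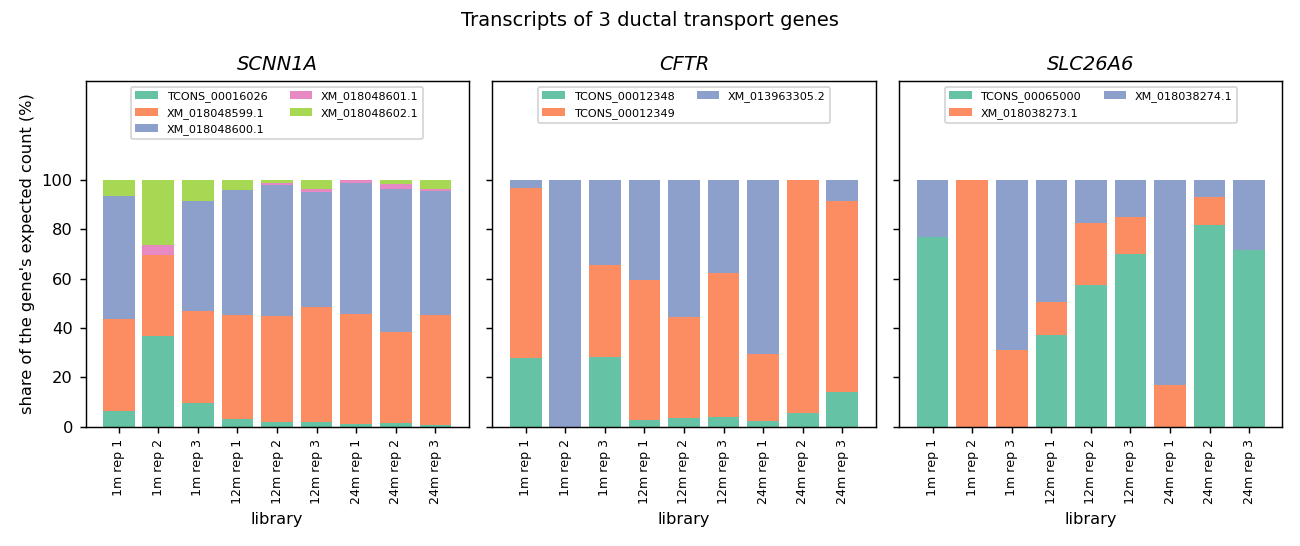
Share of each gene's expected count held by each of its transcripts, in percent, for SCNN1A, CFTR and SLC26A6, with 1 bar per library. SCNN1A keeps a similar split in all libraries but 1-month replicate 2. In those same libraries the RefSeq transcript of CFTR ranges from 0 to 70.7% and TCONS_00065000 of SLC26A6 from 0 to 81.7%. In 1-month replicate 2 the RefSeq transcript is 100% of CFTR, at 4.04 expected counts.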

How the data were processed

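The authors sequenced strand-marked cDNA of 9 glands on an Illumina HiSeq, removed ribosomal reads with Bowtie2 2.2.8, aligned with TopHat2 2.1.1 and assembled transcripts with Cufflinks. The genome build and annotation are not given in the sources used here, so no coordinates are printed. The deposited table holds the authors' RSEM expected counts for 52739 transcripts (42686 known, 10053 new), not normalized for depth or length, and each library is 1 goat.

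Known identifiers were matched to RefSeq gene symbols (42652, 99.9%), and transcripts were summed to 21231 genes. The 432 new transcripts with no gene symbol, 0.244% to 5.993% of counts, were left out. KLK1, SLPI, FABP4, MYH2 and MYH7 were found by product description after the data were seen. Summed counts were rounded and each pair of ages was tested with its 6 libraries in edgeR 4.0.16 (R 4.3.3) with filterByExpr, TMM, glmQLFit and glmQLFTest, without a replicate block. Standard errors are the absolute log2 fold change divided by the square root of F. Subunit ratios were compared by exact permutation tests (scipy 1.17.1). The study's stricter call also asks for an absolute log2 fold change over 2 and a minimum FPKM, which was not applied. Steps were tested on simulated data. No libraries were identical.

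The genes, the pathway and marker lists and the tests were chosen with earlier results of these data known. Named genes are the 9 transport genes, up to 3 genes of smallest adjusted p from each pathway list, NR3C2, HSD11B2, SGK1, NEDD4L, ATP1B1, FOXI1 and ASCL3, and for each tested transport gene the 2 genes of highest correlation with a mean of at least 1 CPM. A few listed genes are not reported here and are in no list count. ATP12A was named after its values were seen. Alternatives were other normalizations and scaling to epithelial genes, DESeq2 1.42.0, edgeR's exact test, no filter, a single fit, each library left out in turn, and a block for the replicate number. Chosen after the data were seen were RefSeq transcripts alone, epithelial scaling without 1-month replicate 2, single transcripts, and lists without that library. Replicate numbers do not pair goats: deviations of same-numbered libraries correlated at -0.25 to 0.43.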

Additional observations from a re-analysis of the deposited data

How the results depend on the processing

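The count of transport genes that passed, 1 from group A to group B, was 3 with DESeq2's Wald test, where 4650 of 16696 genes passed. Scaled to epithelial genes it was 2, SLC4A4 rising and SLC26A6 falling, where 9502 of 14625 genes passed. On that scale without 1-month replicate 2 it was 2, SLC4A4 and FXYD2 both rising, where 11467 of 14625 passed. Over single libraries left out it ran from 0 to 5, beside 0 to 6527 calls over all genes. From group A to group C, where 2 passed, the count was 1 with upper-quartile normalization, where 2457 of 14699 genes passed. It was 1 with total counts (3352 of 14699 genes) and 1 with RefSeq transcripts alone (1911 of 13752). With DESeq2's Wald test it was 5 (4006 of 16648), and with edgeR's exact test also 5 (3748 of 14699). All 9 libraries in one fit gave 4 (4322 of 14868). Over single libraries left out the count ran from 1 to 6, beside 310 to 4273 calls over all genes. From group B to group C it was 0 under all settings except without 24-month replicate 1, and 0 to 3 over single libraries left out. SLC4A4 kept its direction in all 17 alternatives of either comparison with group A, and passed in 16 of them for group B and in all 17 for group C. The call of SCNN1G for group C was lost in 9 of 17.

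The log2 ratio of SCNN1B to SCNN1A from group B to group C ran from -0.12 to 0.28 over single libraries left out, and was -0.12 without 12-month replicate 1. That of SCNN1G to SCNN1A ran from -0.23 to 0.49, and was -0.11 without 12-month replicate 1 and -0.23 without 24-month replicate 1.

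Scaled to epithelial genes, log2 fold changes to group B became -1.20 for SLC26A6, -0.31 for AHCYL1, -0.027 for KCNK1, -0.20 for ATP6V0A4, -0.70 for SGK1 and -0.14 for ASCL3. To group C they became -0.072 for CFTR, -1.54 for SLC26A6, -0.34 for AHCYL1, -0.50 for KCNK1, -0.11 for PDE1C, -0.33 for SGK1, -1.74 for NEDD4L and -0.030 for ASCL3. On that scale without 1-month replicate 2, values to group B were -0.077 for CFTR, -0.044 for SCNN1B, -0.15 for SCNN1G, -0.79 for SLC26A6, -0.000787 for SPINT2, -0.13 for ST14, -0.27 for AHCYL1, -0.086 for PDE1C, -0.28 for NR3C2, -0.34 for HSD11B2, -0.75 for SGK1, -0.30 for FOXI1 and -0.63 for ASCL3. To group C they were -0.65 for CFTR, -1.13 for SLC26A6, -0.30 for AHCYL1, -0.34 for KCNK1, -0.33 for PDE1C, -0.45 for NR3C2, -0.38 for SGK1, -1.17 for NEDD4L, -0.090 for ATP1B1, -0.098 for FOXI1 and -0.53 for ASCL3. These signs follow the shift of the whole scale by construction. With total counts SLC26A6 was at -0.021 and -0.26 and NEDD4L to group C at -0.54. With RefSeq transcripts alone SLC26A6 was at -0.55 and -0.93 and NEDD4L to group C at -1.08. NEDD4L to group C was also at -0.010 with DESeq2's size factors, -0.0092 with upper-quartile normalization, -0.015 with DESeq2's Wald test and -0.040 with all 9 libraries. Over single libraries left out, NEDD4L ran from -0.24 to 0.55 to group C and from -0.54 to 0.23 to group B. SLC26A6 from group B to group C ran from -0.34 to 0.27. The cause of the other changes was not tested.

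With the replicate number as a block, 1 transport gene passed to group B, 2 to group C and 0 between groups B and C, and the calls over all genes were 927, 2159 and 8 against 2662, 2575 and 0 without it. The numbers name different goats and do not pair them. From group A to group B the calls over all genes were also 4650 with DESeq2's Wald test, 4094 with edgeR's exact test, 9502 when scaled to epithelial genes and 0 (without 12-month replicate 1) to 6527 (without 1-month replicate 2) over single libraries left out. To group C they were 4006 with DESeq2's Wald test, 4322 with all 9 libraries in one fit, 9106 when scaled to epithelial genes and 310 (without 24-month replicate 3) to 4273 (without 1-month replicate 2). Between groups B and C they were 21 with DESeq2's Wald test and with the exact test, 1 with no filter and 4655 without 24-month replicate 1. Of the calls, 35.8% were higher in group B and 40.5% higher in group C, against 6.2% and 7.5% with total counts and 0.7% and 1.0% when scaled to epithelial genes. SLC26A4 and KCNJ1 had at most 5.72 and 1.75 expected counts in any library, too few to test. Whether depth or near absence from the gland was the reason was not tested.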

Other observations

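Of the 25 exchange genes, SLC26A9, an anion transporter of airway and stomach epithelium, was at 32.7, 0.544 and 33.3 CPM in the 1-month libraries, at 125 to 208 CPM in group B and at 98.8 to 355 CPM in group C, and was chosen after its values were seen. SLC26A3, a chloride and bicarbonate exchanger of the gut, was at 0 to 0.0360 CPM. Of the genes listed for basal duct cells, KRT5 and KRT14 were highest in 1-month replicate 2, at 134 and 54.4 CPM. The other libraries held 40.1 to 77.3 and 6.12 to 13.3 CPM. KRT17 of the same list was also highest there, at 157 CPM, and TP63 was at 46.5 CPM against 45.8 CPM in 1-month replicate 1. That library also held the highest RAG1 level and low KLK1, and the cells that these keratins came from were not tested.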
